A study of Mus musculus with 10 samples.

Results

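The right ventricle pumps blood into the lungs against a low pressure, and the left ventricle pumps it into the body against a high one. The right ventricle arises largely from the second heart field and the left from the first, and the right wall is thinner, so that its outer and inner surfaces make up more of it. Natriuretic peptide genes are known to respond to stretch, and sarcomere, ion channel and metabolic genes are known to be set to the work of the heart muscle cell. The comparison here asks which named genes and gene classes differed between the free right ventricle (RV) and the left ventricle (LV) of the mouse heart. It rests on 7 of the 10 arrays of the series, chosen by the sample titles: 4 RV and 3 LV arrays, with 3 septum arrays beside them.

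All samples were total RNA of C57BL/6N mice, whose hearts were flushed with cold saline, divided into the 3 regions, frozen and ground. No treatment or genetic change is given for any of these groups, and the sources used here state neither the age nor the sex of these mice. The design text says that separate individuals were used in each experiment, but no label ties an array to an animal, so the p-values measure the spread between arrays. Each array was a one-colour Agilent mouse expression array, and the arrays lay on 2 slides: slide 1 held RV arrays 1 and 2 and LV arrays 1 and 2, and slide 2 held RV arrays 3 and 4 and LV array 3. The septum arrays were used to estimate the spread.

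A level below is log2 of a probe's background-subtracted signal after subtraction of the 75th percentile of its array, so 0 is the brightness that 1 probe in 4 exceeded. Each gene is represented by its brightest probe. A difference is RV minus LV on the log2 scale from a limma fit over all 10 arrays with a term for the slide, given ± SE, and it therefore need not equal the difference of the group means. A call is a Benjamini-Hochberg adjusted p below 0.05 over all 30234 probes tested. Levels of different probes are not comparable with each other.

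Between 53.7% and 64.0% of the spots of an array were well above background, from 56.2% to 64.0% on the RV arrays and 62.3%, 53.7% and 53.7% on LV arrays 1 to 3. No spot was saturated. The heart muscle genes Myh6, Myl2 and Tnnt2 were bright on every RV and LV array, with a lowest level of 8.99 (Tnnt2, RV array 2). Of 4 Y-linked genes tested none was called. The first principal component of the RV and LV arrays held 39.2% of the variance and the second 34%. On the first, the slide 2 arrays of each ventricle lay above the slide 1 arrays of the same ventricle.

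Over all probes 17.6% were called, 7.24% higher and 10.4% lower in the RV. Of 14645 named genes tested, 3121 were called (21.3%). The calls were 1290 higher in the RV (8.81%) and 1831 lower in the RV (12.5%), and the median difference of all named genes was -0.05. Large differences ran mostly the other way: 273 genes were called at 2-fold or more higher in the RV (1.86%) and 50 at 2-fold or more lower (0.341%). The RV and LV arrays did not overlap for 3298 genes (22.5%). Of the calls, 499 of the higher and 481 of the lower genes held in every one of 10 fits that each left out 1 array. These counts depended on the slide term and on 1 array. Without the slide term 460 genes were called higher and 269 lower. Without LV array 3, the LV array on slide 2, 542 were called higher and 537 lower, and without RV array 1, 2 or 4 or LV array 1 or 2 from 946 to 1205 were lower. The division into higher and lower also moved with the scaling, since most called differences were small, with a median size of 0.37. Scaled by the probes detected on all arrays, 1651 genes were called higher and 1005 lower. Scaled by the median they were 1056 and 2667, and after quantile normalization 1324 and 1193.

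**Figure D1:**
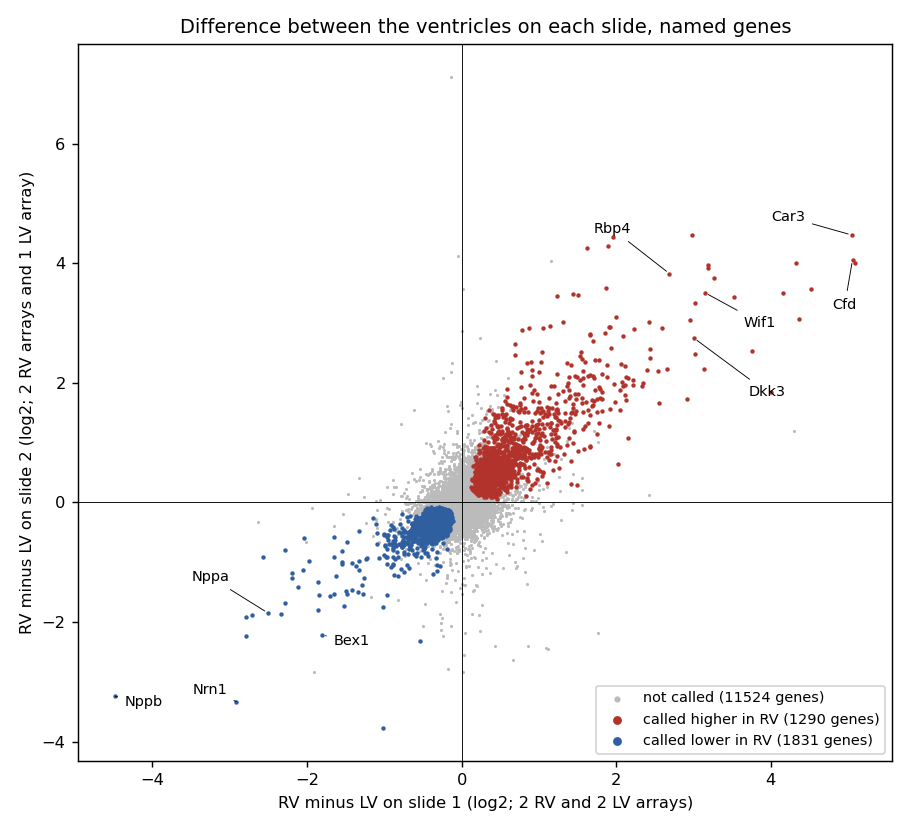
Each point is a named gene, with RV minus LV (log2) on slide 1 along the horizontal axis and on slide 2 along the vertical axis. Red and blue points are the 1290 genes called higher and the 1831 called lower in the RV, grey points were not called, and every called gene has the same sign on both axes.

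The slides give separate sets of arrays, and the difference had the same sign on both for 71.6% of the 14645 named genes. The correlation of the differences was 0.69 across genes, which are not independent replicates and share each slide's arrays. Among the genes not called the signs agreed for 63.9%. All 3121 called genes had the same sign on both slides, which the fit itself favours and which is therefore only a description.

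Natriuretic peptide genes held the largest difference toward the LV. Nppb, which encodes brain natriuretic peptide, had levels of 1.19, 1.72, 5.11 and 3.55 on RV arrays 1 to 4 and of 6.10, 5.76 and 7.57 on LV arrays 1 to 3. Every RV array lay below every LV array, and within each ventricle the slide 2 arrays were above those of slide 1. The difference was -3.95 ± 0.41, or 15.4-fold (adjusted p = 0.00123), and it was -4.48 on slide 1 and -3.24 on slide 2. Nppa, which encodes atrial natriuretic peptide and is high in atrial muscle, had levels of 5.16, 3.17, 5.41 and 3.86 in the RV and 6.79, 6.55 and 6.48 in the LV. The ventricles did not overlap, but the RV arrays were spread widely, with an SD of 1.07 against 0.16 in the LV. The Nppa difference of -2.21 ± 0.56 was called (adjusted p = 0.0292), and the call was lost without LV array 1, 2 or 3 or RV array 2 or 4, over a range of -2.56 to -1.67. Ankrd1, a stretch-responsive titin-associated repeat protein, had levels of 4.79, 5.16, 6.33 and 5.65 in the RV and 6.57, 6.67 and 6.56 in the LV. Its difference was -1.20 ± 0.25 (adjusted p = 0.0153), with -1.65 on slide 1 and -0.57 on slide 2, and it was lost without LV array 1 or 2, over a range of -1.48 to -0.99. Without the slide term the adjusted p was 0.0614 for Nppb, 0.0504 for Nppa and 0.0709 for Ankrd1.

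The windows of 250 bases before the RefSeq transcription starts of these 3 genes are shown because the genes differed in the same direction, and Nppb and Nppa are neighbours on chromosome 4. Capitals mark 3 short motifs searched on both strands: TATAAA (the TATA box), GATAA (a core bound by GATA factors) and GGAATG (the M-CAT element, bound by TEAD factors). The windows are from RefSeq on GRCm38.p6, 5′ to 3′ on the strand of the gene. Nppb is at chr4:147985650-147985899 on the plus strand, Nppa at chr4:148000472-148000721 on the plus strand and Ankrd1 at chr19:36119845-36120094 on the minus strand.
Nppb: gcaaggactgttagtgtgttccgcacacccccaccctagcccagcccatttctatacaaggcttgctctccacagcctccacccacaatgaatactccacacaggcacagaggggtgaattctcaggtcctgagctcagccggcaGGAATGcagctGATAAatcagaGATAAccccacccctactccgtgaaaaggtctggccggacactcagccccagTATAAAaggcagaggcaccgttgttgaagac
Nppa: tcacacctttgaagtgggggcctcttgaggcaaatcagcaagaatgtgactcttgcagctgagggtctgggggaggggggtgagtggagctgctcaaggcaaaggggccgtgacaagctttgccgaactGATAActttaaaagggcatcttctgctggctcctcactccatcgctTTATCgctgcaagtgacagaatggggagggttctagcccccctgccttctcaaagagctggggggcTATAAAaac
Ankrd1: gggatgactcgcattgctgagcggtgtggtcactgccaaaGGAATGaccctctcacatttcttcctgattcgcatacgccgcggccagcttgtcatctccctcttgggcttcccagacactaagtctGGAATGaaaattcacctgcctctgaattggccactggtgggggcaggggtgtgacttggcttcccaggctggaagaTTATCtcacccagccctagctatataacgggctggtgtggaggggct
The Nppb window held GATAA starting 94 and 83 bases before the start, GGAATG at 105 and TATAAA at 31. The Nppa window held GATAA at 121, its reverse complement at 75 and TATAAA at 9. The Ankrd1 window held GGAATG at 210 and 123 and the reverse complement of GATAA at 47. No matches overlapped. Of 32851 such windows in the table, 22.6% held GATAA, 12.6% GGAATG and 12.4% TATAAA on either strand, and a match describes these letters only.

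Of the 22 tested genes of the list of natriuretic peptides and load response, 8 were lower and 1 was higher in the RV, with a median of -0.32 against -0.05 for all named genes. 4 of the 8 held in every fit that left out 1 array, the fewest were 5 without LV array 2, and 1 was called without the slide term. The lower genes also included Xirp2, a repeat protein that binds actin at the Z disc (-0.68 ± 0.13, adjusted p = 0.0113, and 0.142 without the slide term). The gene higher in the RV was Npr3, the receptor that clears natriuretic peptides. Its levels were 2.34, 2.21, 1.36 and 1.70 in the RV and 1.04, 0.68 and 0.03 in the LV, which did not overlap (1.43 ± 0.13, adjusted p = 0.000829). Npr3 is known to mark endocardium as well as to act on these peptides, and it stands in the endothelium list too.

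Transcription factors of the heart differed in both directions. Of 37 tested, 5 were higher in the RV and 13 lower, with a median of -0.15. 4 of the higher and 7 of the lower held in every fit that left out 1 array, and without LV array 3 they were 4 and 7 as well. Irx1, an Iroquois homeobox gene, had levels of -1.02, -0.73, -1.06 and -0.75 in the RV and 0.57, 0.51 and 0.10 in the LV. The arrays were well apart, with a difference of -1.29 ± 0.21 (adjusted p = 0.00642). Gata4, a GATA factor of heart muscle, was lower by a small and even amount, with 2.42 ± 0.17 (SD, n = 4) in the RV and 2.72 ± 0.14 (SD, n = 3) in the LV and a difference of -0.34 ± 0.05 (adjusted p = 0.00353).

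Foxc1 and Foxc2, forkhead genes used in second heart field and vessel development, were higher in the RV. Foxc1 had levels of 0.66, 0.69, 0.54 and 0.42 in the RV and -0.45, -0.53 and -1.10 in the LV (1.33 ± 0.10, adjusted p = 0.000512). Foxc2 differed by 0.75 ± 0.13 (adjusted p = 0.00888). The patterning factors Hand2 (-0.10 ± 0.09, adjusted p = 0.467), Tbx5 (-0.09 ± 0.12, adjusted p = 0.600) and Irx4 (-0.21 ± 0.07, adjusted p = 0.0633) were not called, and Hand1 and Hey2 were too dim to be tested. Without the slide term Gata4 and Foxc2 missed the threshold, with adjusted p of 0.225 and 0.0515.

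Sarcomere genes were more often lower in the RV. Of 61 tested, 24 were lower and 4 higher, with a median of -0.21. 12 of the 24 held in every fit that left out 1 array, and 13 were called lower without LV array 3 and 8 without the slide term. Myot, a Z-disc protein that bundles actin, had levels of 1.43, 1.79, 3.04 and 2.15 in the RV and 3.57, 3.77 and 3.73 in the LV (-1.66 ± 0.27, adjusted p = 0.00614). Ankrd23, a titin-binding relative of Ankrd1, had levels of 3.18, 3.57, 4.74 and 4.14 in the RV and 5.16, 5.30 and 5.78 in the LV (-1.64 ± 0.17, adjusted p = 0.00137). Mybpc2, the fast skeletal form of myosin-binding protein C, differed by -1.55 ± 0.25 (adjusted p = 0.00666). In all 3 the RV arrays of slide 1 were the lowest and none overlapped the LV.

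Mybpc3, the cardiac form of that protein, differed less but with little spread: 8.66, 8.73, 8.79 and 8.80 in the RV and 9.19, 9.23 and 9.22 in the LV (-0.48 ± 0.05, adjusted p = 0.00172). The giant spring protein gene Ttn differed by -0.45 ± 0.07 (adjusted p = 0.00649), and its other 2 tested probes by -0.48 and -0.50. Neither the main ventricular myosin chains nor troponin T were called. Myh6 differed by -0.06 ± 0.06 (adjusted p = 0.562), Myl2 by -0.04 ± 0.06 (adjusted p = 0.711) and Tnnt2 by -0.11 ± 0.07 (adjusted p = 0.323), and for Myh6 and Myl2 the sign changed with the scaling. Myh7, the slow myosin chain, had levels of 3.12, 2.55, 3.74 and 3.36 in the RV and 4.63, 3.33 and 4.12 in the LV, which overlapped (-0.93 ± 0.43, adjusted p = 0.165). Without the slide term Mybpc2 and Ttn missed the threshold, with adjusted p of 0.0604 and 0.0708.

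Genes that bring calcium to the filaments were also more often lower in the RV. Of 45 tested, 12 were lower and 3 higher, with a median of -0.11. 7 of the 12 held in every fit that left out 1 array, 7 were called without LV array 3, where none was called higher, and 3 were called without the slide term. Asph, whose gene gives rise to junctin, had levels of 3.37, 3.43, 3.63 and 3.33 in the RV and 4.24, 4.01 and 3.97 in the LV, with no overlap (-0.63 ± 0.09, adjusted p = 0.00455), while another probe differed by -0.30. Jph2, which tethers the T tubule to the sarcoplasmic reticulum, differed by -0.50 ± 0.08 (adjusted p = 0.00539), and the kinase gene Camk2a by -0.62 ± 0.11 (adjusted p = 0.00912), although another probe of Camk2a differed by -0.10. The release channel Ryr2 differed by -0.29 ± 0.06 (adjusted p = 0.0135) and its binding protein Fkbp1b by 0.79 ± 0.15 the other way (adjusted p = 0.0103). Both calls were lost without LV array 3, over ranges of -0.32 to -0.25 and 0.67 to 0.91. The calcium pump Atp2a2 (-0.25 ± 0.10, adjusted p = 0.132) and its inhibitor Pln (-0.08 ± 0.07, adjusted p = 0.467) were not called. Without the slide term the adjusted p was 0.127 for Jph2, 0.106 for Camk2a, 0.199 for Ryr2 and 0.0623 for Fkbp1b.

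Ion channel genes differed one by one rather than as a class. Of 44 potassium channel genes tested, 7 were higher and 6 lower, and which side held more changed with the scaling. Kcnj4, an inward rectifier, had levels of -3.57, -3.40, -3.04 and -3.33 in the RV and -2.13, -2.33 and -1.92 in the LV (-1.25 ± 0.11, adjusted p = 0.000748, and -0.76 after normexp background correction, which adds an offset to every signal). Kcnk3, a background channel of the TASK type, differed by -0.74 ± 0.10 (adjusted p = 0.0029). Kcnd2, which carries the fast transient outward current, had levels of 2.05, 1.84, 2.07 and 1.99 in the RV and 1.48, 1.34 and 1.38 in the LV, so every RV array was higher (0.59 ± 0.08, adjusted p = 0.00265). The sodium-activated channel Kcnt2 differed by 0.88 ± 0.12 (adjusted p = 0.003, and 0.54 with normexp). Kcnip2, the accessory subunit of Kcnd2 channels, was not called (-0.33 ± 0.12, adjusted p = 0.101), although its 7 arrays did not overlap. Without LV array 3, 2 potassium channel genes were called higher and 4 lower.

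Among 32 genes of a list of sodium and pacemaker channels, gap junctions and other conduction system genes, 6 were higher and 8 lower. The calls include genes that are no channels, such as Id2, described with the BMP genes. Without LV array 3, 2 of each were called, and without RV array 2 or 4 or LV array 2 there were 3 higher and 3 or 4 lower, the lower count being 4 without RV array 1, LV array 1 or septum array 3 too. Scn10a, a sodium channel best known from sensory neurons, had levels of -0.46, -0.64, -1.44 and -0.63 in the RV and -1.72, -2.18 and -2.45 in the LV (1.38 ± 0.22, adjusted p = 0.00649, and 0.73 for another probe). The sodium channel beta subunit gene Scn4b differed by -0.96 ± 0.23 (adjusted p = 0.0233). The call was lost in 6 of 10 fits, those without RV array 1, 2 or 4 or any LV array, over a range of -1.14 to -0.83. Without the slide term its adjusted p was 0.103.

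In G protein signalling, 11 of 64 tested genes were higher (17.2%) and 8 lower (12.5%), against 8.81% and 12.5% of all named genes. The larger count changed side with the scaling. Gnb3, a G protein beta subunit, had levels of -1.78, -1.97, -1.13 and -1.75 in the RV and 0.48, 0.33 and 0.23 in the LV, far apart (-2.03 ± 0.17, 4.09-fold, adjusted p = 0.000669). Prkar2b, a regulatory subunit of protein kinase A, differed by 1.23 ± 0.12 (adjusted p = 0.00114) and Gnai1, an inhibitory alpha subunit, by 0.94 ± 0.12 (adjusted p = 0.00277). The gamma subunit Gng13 differed by 1.70 ± 0.23, given with no p as it entered the test through the RV arrays alone, and it was above background on 1 LV array and differed by 0.96 with normexp. 7 of the 11 and 2 of the 8 held in every fit that left out 1 array, 7 were called higher without LV array 3, and from 2 to 5 lower without LV array 2 or 3 or RV array 1, 2 or 4. Of 26 genes of cyclic nucleotide breakdown, 3 were higher and 3 lower, and 1 of each without any 1 of the LV arrays or RV array 1 or 2. In the intercalated disc and dystrophin complex 11 of 34 were lower and 1 was higher, with differences over the list from -0.39 to 0.52, and 3 were called lower without LV array 3 and 6 or 7 without LV array 1 or 2, RV array 1 or 2 or septum array 3.

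**Figure D2:**
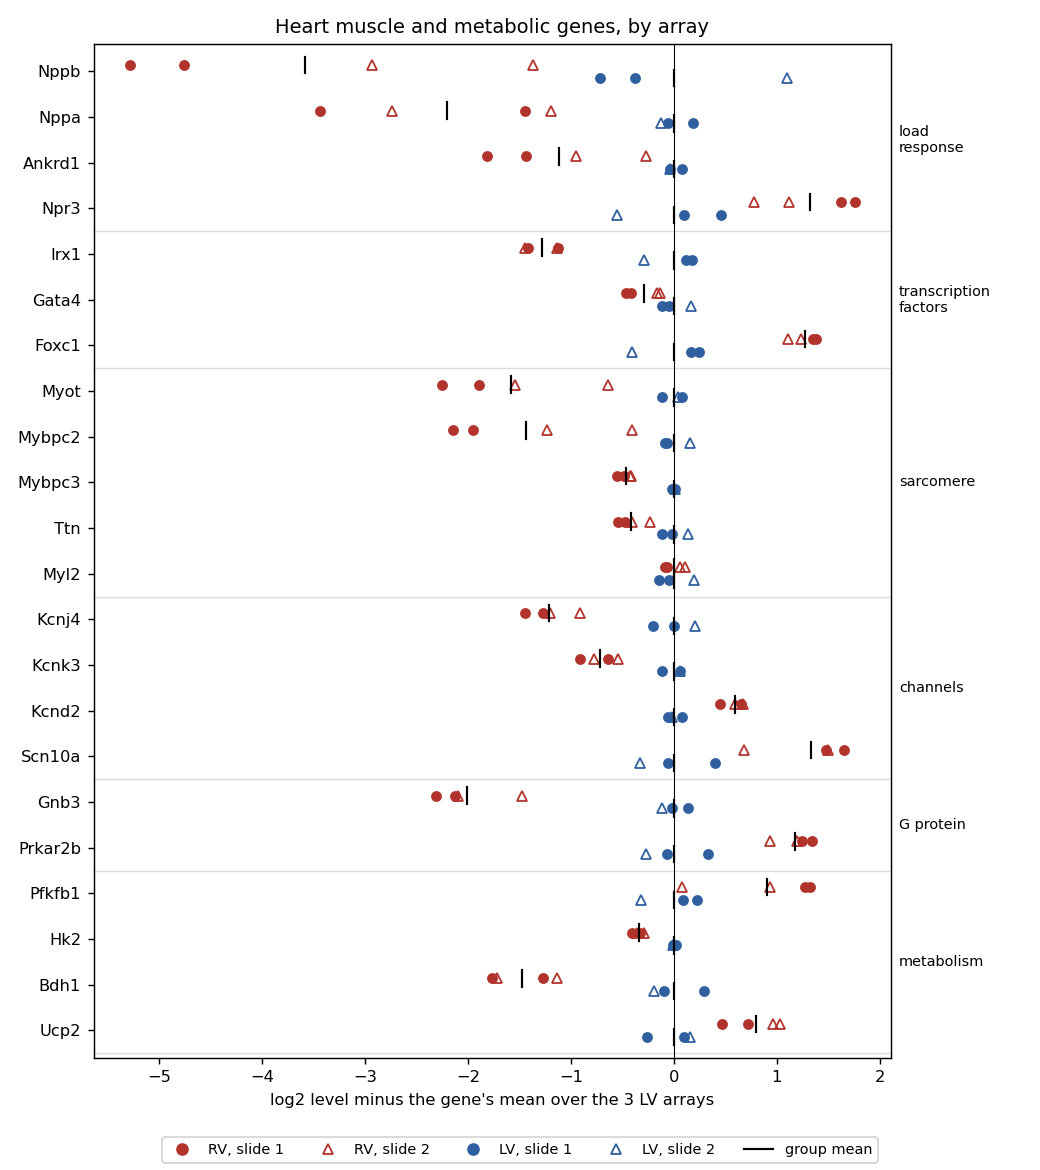
Levels of heart muscle and metabolic genes on each array as log2 minus the gene's LV mean (horizontal axis), with circles for slide 1, triangles for slide 2 and black bars for group means. RV points (red) lie left of LV points (blue) for Nppb, Irx1, Mybpc3, Kcnj4, Gnb3 and Bdh1, and right of them for Foxc1, Kcnd2 and Ucp2, while for Myl2 and Pfkfb1 the ventricles overlap.

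Glucose-handling genes were the metabolic class with the most calls. Of 70 tested, 26 were lower in the RV and 9 higher, with a median of -0.15. 8 of the 26 held in every fit that left out 1 array, 8 were called without LV array 3, from 12 to 15 without LV array 1 or 2 or RV array 1 or 2, and 7 without the slide term. Hk2, a main muscle hexokinase, differed by -0.35 ± 0.06 with no overlap (adjusted p = 0.00916).

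Among the genes higher in the RV was Pfkfb1, which makes a sugar bisphosphate that regulates glycolysis. It differed by 1.01 ± 0.19 (adjusted p = 0.010, and 0.139 without the slide term). The insulin-dependent transporter Slc2a4 differed by -0.27 ± 0.07 (adjusted p = 0.0347), a call lost without RV array 1 or 2, any LV array or septum array 3, over a range of -0.31 to -0.23, and also without the slide term (adjusted p = 0.112). The transporter Slc2a2, above background on 1 RV array, differed by -1.32 ± 0.34 (-0.62 with normexp), with no p, as it entered the test through the LV arrays alone.

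Fatty acid oxidation genes tended the same way, with 17 of 71 lower and 7 higher and a median of -0.12, but without LV array 3 only 2 were called lower and 3 higher, and without LV array 1 or 2, RV array 1 or 2 or septum array 3 from 8 to 11 were lower. Bdh1, which interconverts ketone bodies, had levels of 3.08, 3.58, 3.71 and 3.13 in the RV and 4.76, 5.15 and 4.65 in the LV (-1.45 ± 0.22, adjusted p = 0.00476, and -1.47 for another probe). The mitochondrial uncoupling proteins Ucp2 (0.75 ± 0.11, adjusted p = 0.00385) and Ucp3 (0.65 ± 0.12, adjusted p = 0.00882) were higher, with no overlap between the ventricles. Cpt1b, which admits fatty acids to mitochondria, differed by -0.50 ± 0.09 (adjusted p = 0.00808), lost without LV array 3 over a range of -0.54 to -0.43. The uptake protein Cd36 differed by -0.24 ± 0.06 (adjusted p = 0.0376), a call lost in 9 of 10 fits, all but the one without RV array 3, over a range of -0.27 to -0.18, and without the slide term (adjusted p = 0.112).

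The lists of the respiratory chain and the tricarboxylic acid cycle had medians from -0.14 to -0.05, against -0.05 for all named genes. Their shares of lower genes lay on both sides of the 12.5% of all named genes. Complex I had 3 of 44 genes lower (6.82%) and none higher, and ATP synthase and the adenine nucleotide carriers 1 of 24 lower (4.17%). Complexes II to IV had 9 of 44 lower (20.45%) and 1 higher, and the list of the tricarboxylic acid cycle 6 of 33 lower (18.2%) and 1 higher. The higher gene of that list was Pck1, an enzyme of glucose and glycerol synthesis, which entered the test through the RV arrays alone. Without LV array 3 no gene of complex I, ATP synthase or the cycle was called lower, and 3 of complexes II to IV were. With LV array 1 or 2, RV array 1 or 2 or septum array 3 left out, the lower counts were 1 in complex I, from 0 to 3 in the cycle and from 2 to 4 in complexes II to IV, and with RV array 4 left out they were 1 in complex I and 4 in complexes II to IV. The calls included the assembly genes Cox19 (-0.52 ± 0.07, adjusted p = 0.00279) and Cox10 (-0.38 ± 0.06, adjusted p = 0.00542, and 0.105 without the slide term). Of 37 genes of creatine, adenylate and nucleotide metabolism, 11 were lower and 2 higher, with 4 lower without LV array 3 and 6 or 7 without RV array 1 or LV array 1. They included the creatine transporter Slc6a8, with 4.80, 4.78, 4.95 and 5.05 in the RV and 5.36, 5.40 and 5.50 in the LV (-0.55 ± 0.07, adjusted p = 0.0025).

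In the other metabolic lists single genes were higher in the RV. Apoc1, an apolipoprotein, had levels of 0.60, -0.02, 0.29 and 0.19 in the RV and -1.87, -1.98 and -1.81 in the LV (2.17 ± 0.19, adjusted p = 0.000686). Apoe, which lies beside it in the genome, differed by 0.61 ± 0.06 (adjusted p = 0.000841). The fatty acid synthase gene Fasn differed by 1.25 ± 0.30 (adjusted p = 0.0239), lost without RV array 1 or any LV array, over a range of 1.09 to 1.49. Among 48 genes of lipid synthesis 6 were higher and 3 lower (3 and 0 without LV array 3 or RV array 1), and after scaling by the median 4 were higher and 8 lower.

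Among 46 amino acid genes 6 were higher and 6 lower, or 3 and 0 without LV array 3 and 3 of each without RV array 1 or LV array 2. The cysteine dioxygenase gene Cdo1 was above background throughout the RV and nowhere in the LV, at least 4.83-fold higher (adjusted p = 0.00153), where "at least" marks a bound against the dimmest signal an LV array could measure, and the serine and cysteine pathway genes Phgdh (0.91 ± 0.14, adjusted p = 0.00561) and Cbs (0.94 ± 0.13, adjusted p = 0.00333, and 0.59 with normexp) were also higher. Of 55 antioxidant genes 7 were higher and 7 lower (12.7% each), with 2 higher without LV array 3 and 3 or 4 without LV array 1 or RV array 1, 2 or 4. Among them were the transferase genes Gstt3 (0.56 ± 0.07, adjusted p = 0.00248) and Gsta2 (-0.76 ± 0.09, adjusted p = 0.0023) and the quinone reductase Nqo1 (-0.60 ± 0.09, adjusted p = 0.00497). Retinoid genes were 5 higher and 3 lower of 25, or 4 and 1 without LV array 3. Rbp4, the plasma carrier of retinol, had levels of 1.24, 0.85, 2.0 and 1.62 in the RV and -1.71, -1.58 and -2.02 in the LV (3.18 ± 0.39, 9.06-fold, adjusted p = 0.00234). Rarres2, which encodes chemerin, differed by 0.86 ± 0.07 (adjusted p = 0.00065, and 0.116 without the slide term).

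**Figure D3:**
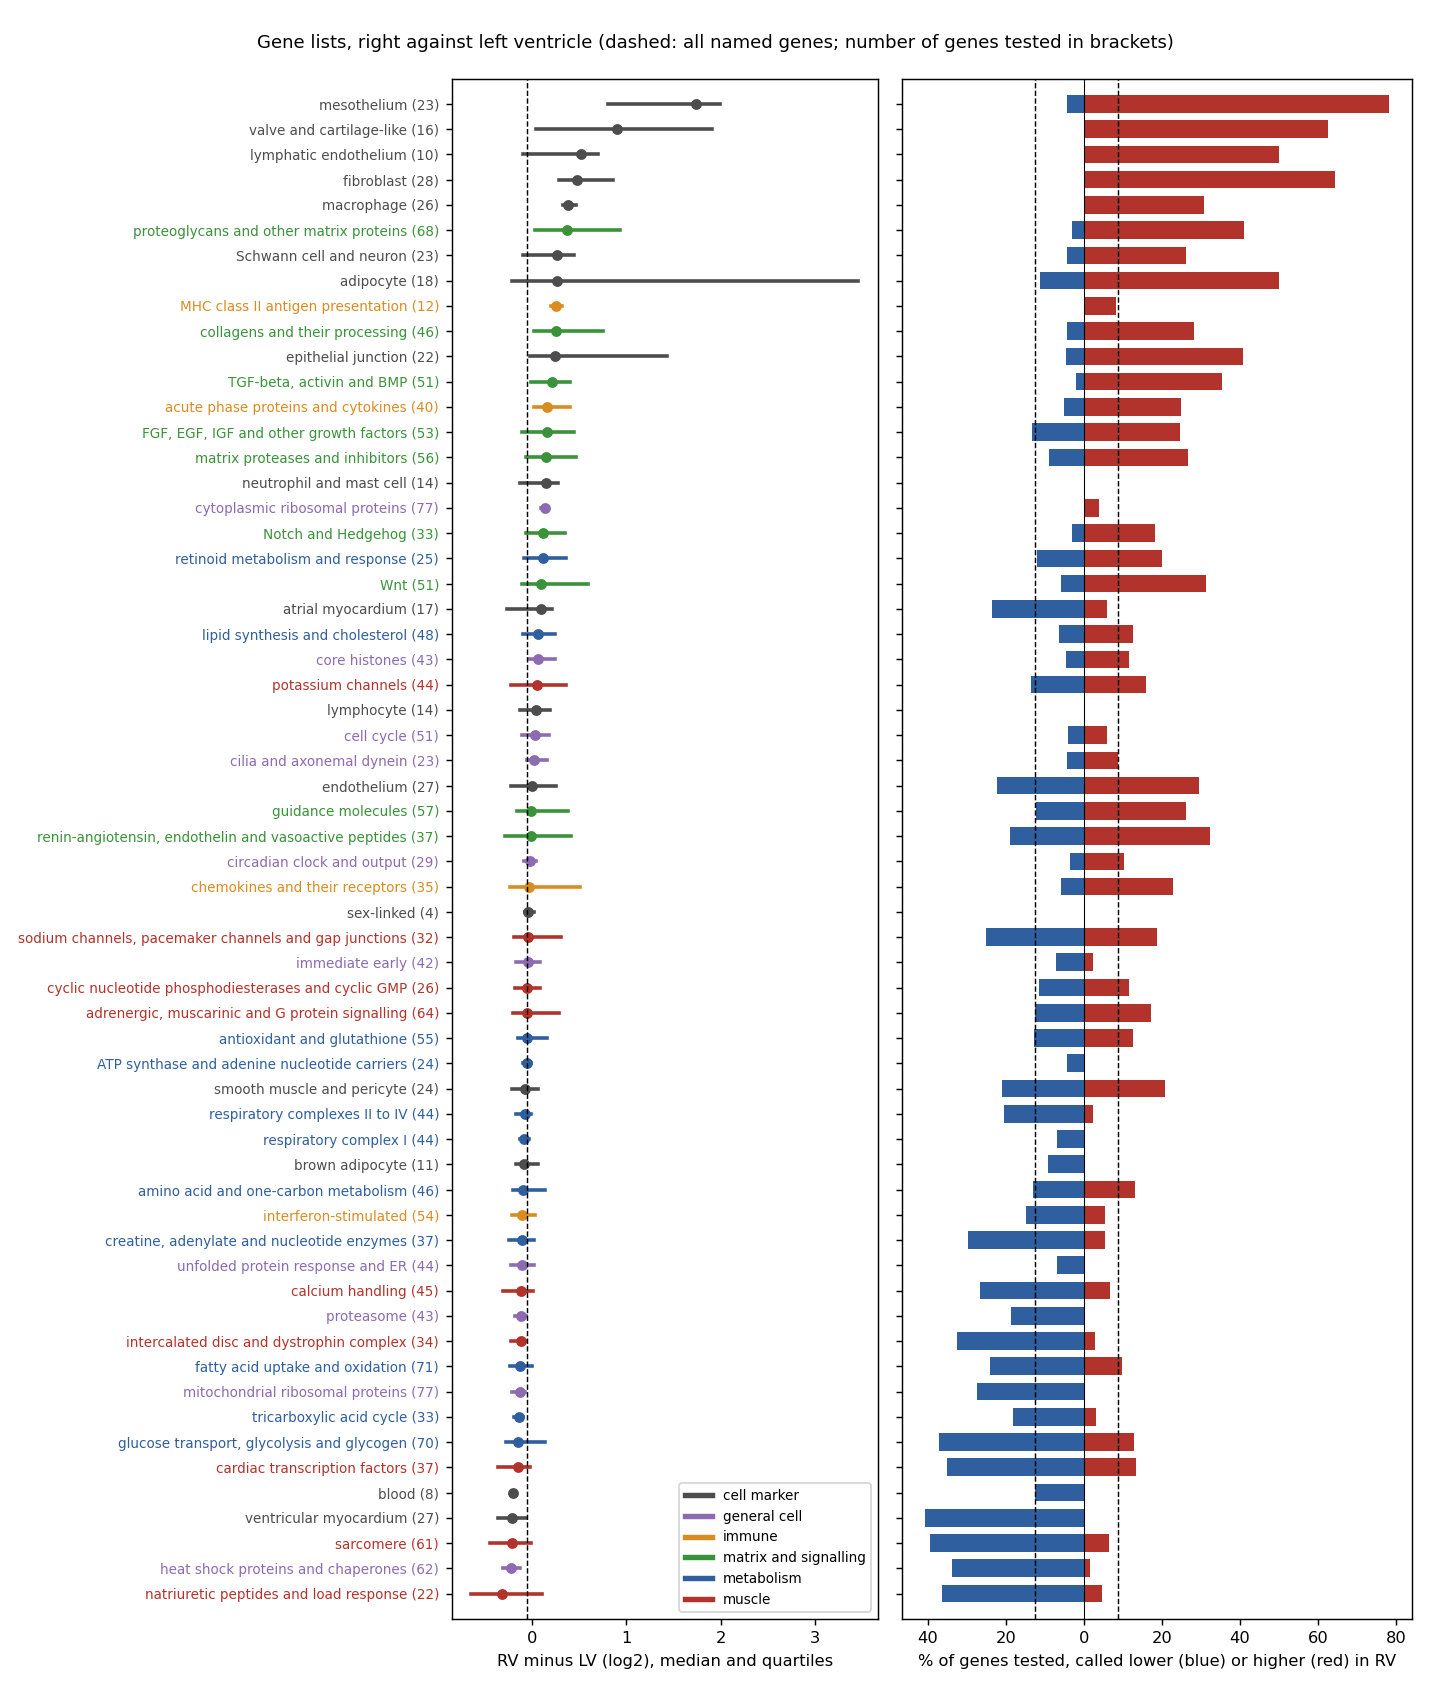
Left, the median and quartiles of RV minus LV (log2) over the tested genes of each of the 60 lists. Right, the percent of those genes called lower (blue) or higher (red) in the RV; dashed lines show all named genes, at a median of -0.05, 8.81% higher and 12.5% lower. Mesothelium and valve markers have the highest medians and load, chaperone and sarcomere genes the lowest.

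Matrix genes were more often higher in the RV. Of 68 proteoglycans and other matrix proteins, 28 were higher and 2 lower, with a median of 0.37, and 15 were at least 2-fold higher. 14 of the 28 held in every fit that left out 1 array, and as many were called without LV array 3. Of 46 collagens and collagen enzymes 13 were higher and 2 lower, with 3 higher without LV array 3 and 6 or 7 without LV array 1 or RV array 3 or 4, and of 56 proteases and inhibitors 15 were higher and 5 lower, with 8 and 2 without LV array 3. In bulk tissue more cells of a type and more RNA per cell cannot be told apart, and these classes moved with fibroblast markers, of which 18 of 28 were higher and none lower (8 higher without LV array 3, 10 without LV array 1 or RV array 4 and 7 without the slide term), with a summed level of 1328 to 1572 in the RV and 1093 to 1186 in the LV in units of the array's 75th percentile. The fibroblast list itself holds matrix genes, such as Col1a1 and Col3a1, so it is not separate from these classes. The part of cell composition in the differences of these classes was not tested.

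Comp, a cartilage and tendon matrix protein, had levels of 1.91, 1.52, 3.96 and 2.97 in the RV and -0.88, -0.53 and 0.45 in the LV (2.68 ± 0.33, adjusted p = 0.0023). Fmod, a collagen-binding proteoglycan, had 0.02, 0.04, 1.34 and 0.60 in the RV and -1.89, -1.91 and -1.97 in the LV (2.31 ± 0.29, adjusted p = 0.00245). Both were higher on slide 2 than on slide 1 within the RV. Epyc, a related proteoglycan, and Col8a2, a short-chain collagen, were above background on all RV arrays and no LV array, at least 2.71-fold and at least 2.88-fold higher (adjusted p = 0.00385 and 0.00426). Col4a6, a basement membrane collagen, differed by 2.35 ± 0.36 (adjusted p = 0.00542).

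The fibrillar collagens were less clear. Col3a1 had levels of 2.86, 3.21, 4.25 and 4.36 in the RV and 2.17, 2.82 and 2.88 in the LV, which overlapped. Its difference of 0.93 ± 0.24 (adjusted p = 0.0326) was 0.54 on slide 1 and 1.43 on slide 2, and it was lost without LV array 1 or 3 or RV array 2, 3 or 4, over a range of 0.74 to 1.15, and without the slide term (adjusted p = 0.146). Col1a1 was not called (0.86 ± 0.26, adjusted p = 0.0547). Among proteases and inhibitors Mmp23 (0.95 ± 0.10, adjusted p = 0.00139), Serpinf1 (0.91 ± 0.15, adjusted p = 0.00718) and Timp2 (0.75 ± 0.10, adjusted p = 0.00297) differed with no overlap.

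Wif1 and Dkk3 of the Wnt pathway were among the 12 genes with the largest differences toward the RV. Of 51 Wnt pathway genes tested, 16 were higher and 3 lower, and 9 were at least 2-fold higher. 7 of the 16 held in every fit that left out 1 array, 8 were called without LV array 3 and 7 without the slide term. Wif1, which binds Wnt proteins outside the cell, had levels of 1.73, 1.41, 2.41 and 1.59 in the RV and -1.26, -1.90 and -1.51 in the LV (3.29 ± 0.30, 9.76-fold, adjusted p = 0.000837). Dkk3, a secreted member of the Dickkopf family, had levels of 2.59, 2.55, 3.86 and 3.22 in the RV and -0.26, -0.61 and 0.79 in the LV (2.95 ± 0.39, adjusted p = 0.00306). The agonist Rspo1 differed by 1.67 ± 0.25 (adjusted p = 0.00508, and 0.0988 without the slide term), and the decoy receptor gene Sfrp4 by 1.59 ± 0.31 (0.52 with normexp), with 1 LV array above background and no p, as it entered the test through the RV arrays alone. Some of these genes also stand in marker lists, Wif1 among those of valve and cartilage, Rspo1 among those of mesothelium and Dkk3 among those of atrial muscle.

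TGF-beta, activin and BMP genes were 18 higher and 1 lower of 51, with a median of 0.22. 7 of the 18 held in every fit that left out 1 array, and 7 were called higher without LV array 3, and 10 or 11 without LV array 1 or 2 or RV array 1 or 4. Chrdl1, a secreted BMP antagonist, had levels of -0.80, -1.0, -0.98 and -1.01 in the RV and -2.70, -2.96 and -3.57 in the LV (2.15 ± 0.29, adjusted p = 0.00337, and 1.28 with normexp), and 2 of the 3 LV arrays were above background. Id2, a target of BMP signals that lacks a DNA-binding domain, was very even, with 1.23, 1.14, 1.17 and 1.32 in the RV and 0.06, 0.01 and -0.08 in the LV (1.22 ± 0.08, adjusted p = 0.000469). Its relative Id4 was above background on all RV arrays and no LV array, at least 1.64-fold higher (adjusted p = 0.000731). In the Notch and Hedgehog list 6 of 33 were higher and 1 lower, with 2 higher without LV array 3. The Hedgehog coreceptor Cdon differed by 0.97 ± 0.13 (adjusted p = 0.00341), although another probe differed by 0.30, and the signal transducer Smo by 0.60 ± 0.07 (adjusted p = 0.00201).

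Growth factor genes were 13 higher of 53 (24.5%), against 8.81% of all named genes. The 7 lower (13.2%) were near the 12.5% of all named genes. The counts were 6 and 4 without LV array 3, with 8 higher without LV array 1. Nrn1, which encodes the membrane-anchored protein neuritin, had levels of -1.51, -1.92, -2.10 and -1.77 in the RV and 1.46, 0.94 and 1.40 in the LV. The RV arrays lay far below, by -3.07 ± 0.18 or 8.41-fold (adjusted p = 0.000469), and by -2.91 and -3.33 on the slides. Fgf6 was above background on all LV arrays and 1 RV array (-2.57 ± 0.32, adjusted p = 0.00255, and -0.80 with normexp). Igf2 had levels of 1.48, 1.35, 0.65 and 1.08 in the RV and -0.38, -0.30 and -0.28 in the LV (1.49 ± 0.17, adjusted p = 0.00183), and the binding protein Igfbp5 differed by 1.19 ± 0.12 (adjusted p = 0.00115).

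Guidance molecules were 15 higher (26.3%) and 7 lower (12.3%) of 57, against 8.81% and 12.5% of all named genes, or 8 and 5 without LV array 3. Sema3d, a secreted semaphorin, differed by 1.35 ± 0.15 (adjusted p = 0.00177), and Sema3a was above background on all RV arrays and no LV array, at least 1.80-fold higher, with no p given as it entered the test through the RV arrays alone. Vasoactive peptide and prostanoid genes were 12 higher and 7 lower of 37, or 4 and 4 without LV array 3, with 6 higher without LV array 1. In the prostaglandin pathway the enzymes moved apart. Ptgds, the prostaglandin D synthase, had levels of 6.31, 5.69, 7.33 and 6.48 in the RV and 8.35, 7.87 and 8.32 in the LV (-1.81 ± 0.27, 3.51-fold, adjusted p = 0.00458). The prostacyclin synthase Ptgis had 3.57, 3.56, 4.60 and 4.08 in the RV and 2.67, 2.60 and 2.65 in the LV (1.24 ± 0.19, adjusted p = 0.00522), and the cyclooxygenase Ptgs1 differed by 1.15 ± 0.09 (adjusted p = 0.000638).

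**Figure D4:**
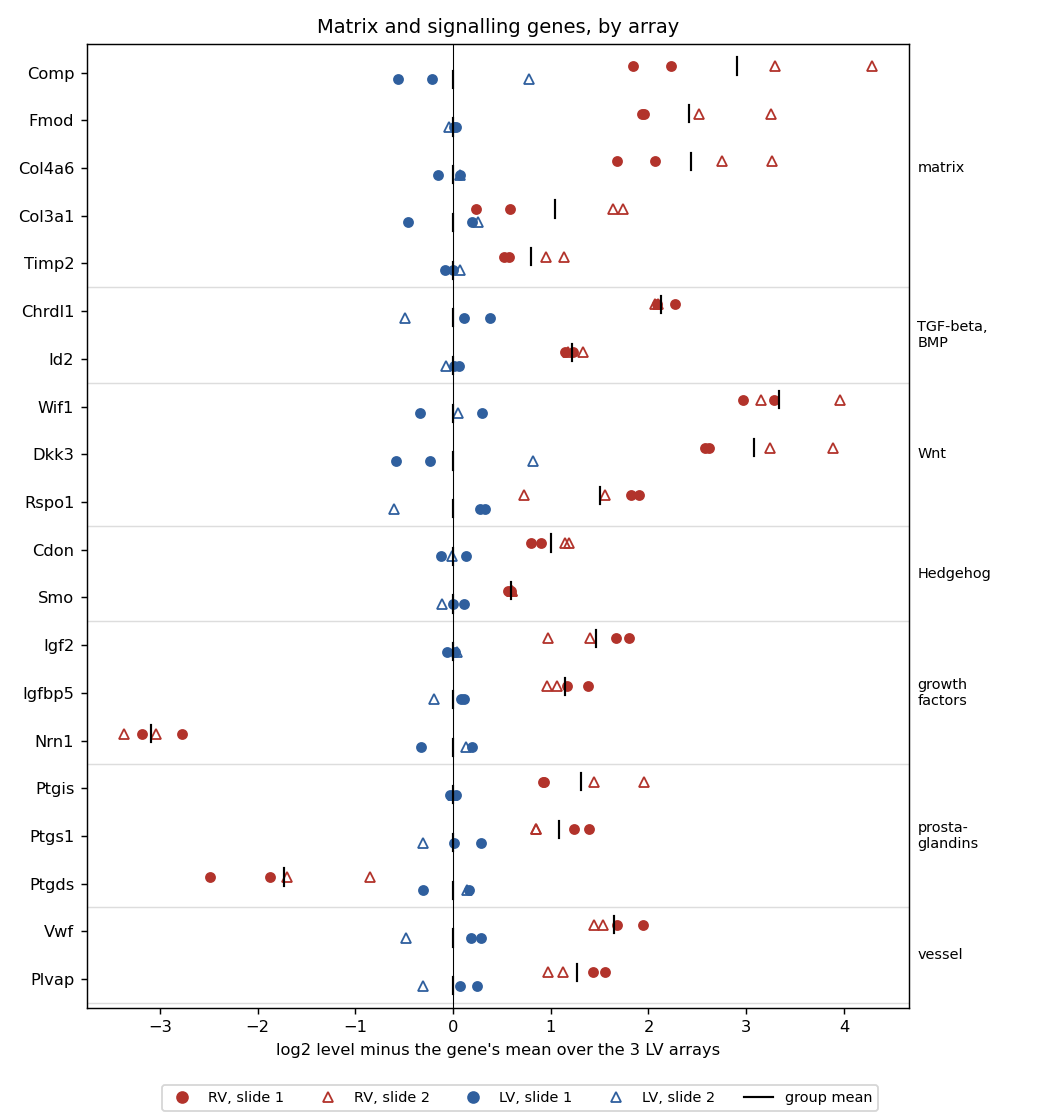
Levels of matrix, signalling and vessel genes on each array as log2 minus the gene's LV mean (horizontal axis), with circles for slide 1, triangles for slide 2 and black bars for group means. Apart from Nrn1 and Ptgds the RV points (red) lie to the right, those of slide 2 farther for Comp, Fmod and Col3a1, while Col3a1 alone overlaps the LV points (blue).

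Immune lists were uneven. Of 40 acute phase and cytokine genes, 10 were higher and 2 lower, or 6 higher without LV array 1 or 3. Hp, which encodes the haemoglobin-binding protein haptoglobin, had levels of 2.75, 2.06, 2.40 and 3.24 in the RV and -2.21, -1.30 and -0.68 in the LV (3.97 ± 0.50, 15.6-fold, adjusted p = 0.00259). Itih4, a plasma protease inhibitor heavy chain, differed by 2.13 ± 0.31 (adjusted p = 0.00444), though another probe differed by 0.56, and the alarmin Il33 by 1.31 ± 0.13 (adjusted p = 0.00123). Of 35 chemokine genes 8 were higher and 2 lower, or 4 and 1 without LV array 3 and 5 higher without LV array 1 or RV array 3 or 4. Ccl19, a chemokine of lymphoid stroma, had levels of 0.33, 0.40, 0.34 and 0.43 in the RV and -1.15, -1.06 and -1.10 in the LV (1.50 ± 0.19, adjusted p = 0.00269). The eosinophil chemokines Ccl11 (1.05 ± 0.11, adjusted p = 0.00137) and Ccl24 (0.83 ± 0.10, adjusted p = 0.00232) were also higher.

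Interferon-stimulated genes were 8 lower (14.8%) and 3 higher (5.56%) of 54, near the 12.5% and 8.81% of all named genes. The lower count was 3 without LV array 3, 2 without LV array 2, 4 or 5 without RV array 4 or 2 and 1 without the slide term. The largest difference was that of the guanylate-binding protein Gbp6 (-1.43 ± 0.23, adjusted p = 0.00626). Of 26 macrophage markers 8 were higher and none lower, or 3 without LV array 3 and 1 without the slide term. Their median was 0.39 and their summed level 143 to 178 in the RV and 96.8 to 147 in the LV. No lymphocyte marker among 14 tested and no neutrophil or mast cell marker among 14 was called.

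Chaperone, mitochondrial ribosomal and proteasome genes had medians below 0, and cytoplasmic ribosomal genes a median above 0. Of 62 heat shock proteins and chaperones, 21 were lower and 1 higher, with a median of -0.23. 6 of the 21 held in every fit that left out 1 array, and 6 were called lower without LV array 3 and from 10 to 12 without LV array 2 or RV array 1 or 2. Without the slide term 3 were called lower. Hspb7, a small heat shock protein of heart muscle, had levels of 8.52, 8.63, 8.82 and 8.70 in the RV and 9.22, 9.21 and 9.23 in the LV (-0.57 ± 0.07, adjusted p = 0.00204). Hspa1l, a relative of the inducible chaperone, differed by -1.33 ± 0.13 (adjusted p = 0.00114, and 0.0585 without the slide term). Mitochondrial ribosomal protein genes were 21 lower and none higher of 77, with a median of -0.13. The lower count was 3 without LV array 3, from 7 to 12 without LV array 1 or 2, RV array 1, 2 or 4 or septum array 3, and 1 without the slide term. Mrpl3 differed by -0.36 ± 0.07 (adjusted p = 0.0132, and 0.101 without the slide term). Cytoplasmic ribosomal protein genes were 3 higher and none lower of 77, with a median of 0.14. With any 1 of the LV arrays or RV array 1, 2 or 4 left out, 1 was called, and 20 were called higher under one of the other scalings. Of these Rpl22l1 differed most (0.46 ± 0.08, adjusted p = 0.00833, and 0.283 without the slide term). Proteasome genes were 8 lower of 43, with none called without LV array 3 or without the slide term. From 1 to 4 were called without LV array 1 or 2, RV array 1, 2 or 4 or septum array 3, and none under one of the other scalings.

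Clock, stress, cell cycle and histone genes had few calls. Their shares lower ran from 3.45% to 7.14%, below the 12.5% of all named genes. The shares higher ran from 0% to 11.6%, against 8.81%. Of 29 clock genes 3 were higher and 1 lower, including Wee1, a kinase gene under clock control (0.42 ± 0.08, adjusted p = 0.00968). Of 42 immediate early genes 1 was higher and 3 lower. Ccn1, a matricellular gene, differed by -0.63 ± 0.07 (adjusted p = 0.00141, and 0.0834 without the slide term), and Fos, measured on 3 RV arrays as its spot on RV array 3 was an outlier, was not called (0.77 ± 0.33, adjusted p = 0.148). Cell cycle genes were 3 higher and 2 lower of 51, core histones 5 and 2 of 43, and genes of the unfolded protein response 3 lower of 44. Without LV array 3 these counts were 0 and 1, 2 and 0, and 0, and clock genes had 1 higher and immediate early genes 1 lower. Among 23 cilium genes 2 were higher and 1 lower, led by the axoneme gene Rsph9 (0.82 ± 0.08, adjusted p = 0.00105, and 0.0628 without the slide term).

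Gene families grouped by the stem of the symbol gave the same kind of picture across 95 families of 15 or more tested genes. The largest shares of genes higher in the RV were 6 of 16 Sema genes (37.5%), 7 of 19 Krt genes (36.8%) and 10 of 31 Col genes (32.3%). The share over all named genes was 8.81%. The largest shares lower, against 12.5% of all named genes, were 6 of 15 Asb genes (40%), which encode SOCS-box ubiquitin ligase subunits, and 8 of 23 Kif genes (34.8%), which encode kinesin motors. Next came 8 of 25 Dnajc genes (32%), which encode J-domain cochaperones, and 13 of 42 Usp genes (31%), which encode deubiquitinases. These are the extremes of the 95 families, and no family was tested. The zinc finger family Zfp, with 333 genes, had 14 higher (4.2%) and 19 lower (5.71%), below the shares of all named genes. The solute carriers, with 258 genes, had 30 higher (11.6%) and 32 lower (12.4%), near those shares.

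The 12 largest differences in each direction, among genes detected on all RV and LV arrays, came from several classes, and genes of fat cells led those toward the RV. Car3, a carbonic anhydrase abundant in fat and slow muscle, differed most, with 2.17, 1.82, 2.41 and 2.53 in the RV and -3.51, -2.60 and -2.01 in the LV (4.88 ± 0.53, 29.5-fold, adjusted p = 0.00151). The fat cell genes Cfd (4.74 ± 0.56), Cidec (4.20 ± 0.47), Cyp2e1 (3.88 ± 0.39) and Retn (3.33 ± 0.48) followed, with adjusted p from 0.00115 to 0.00402. Ecrg4, which encodes a secreted peptide precursor, had levels of 0.92, 0.64, 2.71 and 1.20 in the RV and -2.84, -2.13 and -1.80 in the LV (3.47 ± 0.38, adjusted p = 0.00162). The noncoding transcript E030013I19Rik differed by 2.96 ± 0.61 (adjusted p = 0.0148, and 0.0702 without the slide term), lost without LV array 3 over a range of 2.20 to 3.40. The matricellular gene Ccn3 had levels of 0.59, 1.34, 3.56 and 2.73 in the RV and -0.88, -0.97 and -1.14 in the LV (2.86 ± 0.56, adjusted p = 0.0124), which was 1.89 on slide 1 and 4.28 on slide 2, and the call was lost without LV array 3, where the value was 2.13.

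On the LV side Bex1, a small brain-expressed X-linked gene, was the most even, with -2.55, -2.73, -2.67 and -2.72 in the RV and -0.75, -0.92 and -0.48 in the LV (-1.98 ± 0.10, 3.94-fold, adjusted p = 0.000353). Klhl34, a kelch-repeat gene, differed by -2.14 ± 0.21 (adjusted p = 0.00105), the water channel Aqp8 by -1.72 ± 0.23 (adjusted p = 0.00303) and Plekhh1, a gene with pleckstrin homology domains, by -1.77 ± 0.28 (adjusted p = 0.00582, and 0.0602 without the slide term). None of these 4 genes overlapped between the ventricles.

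**Figure D5:**
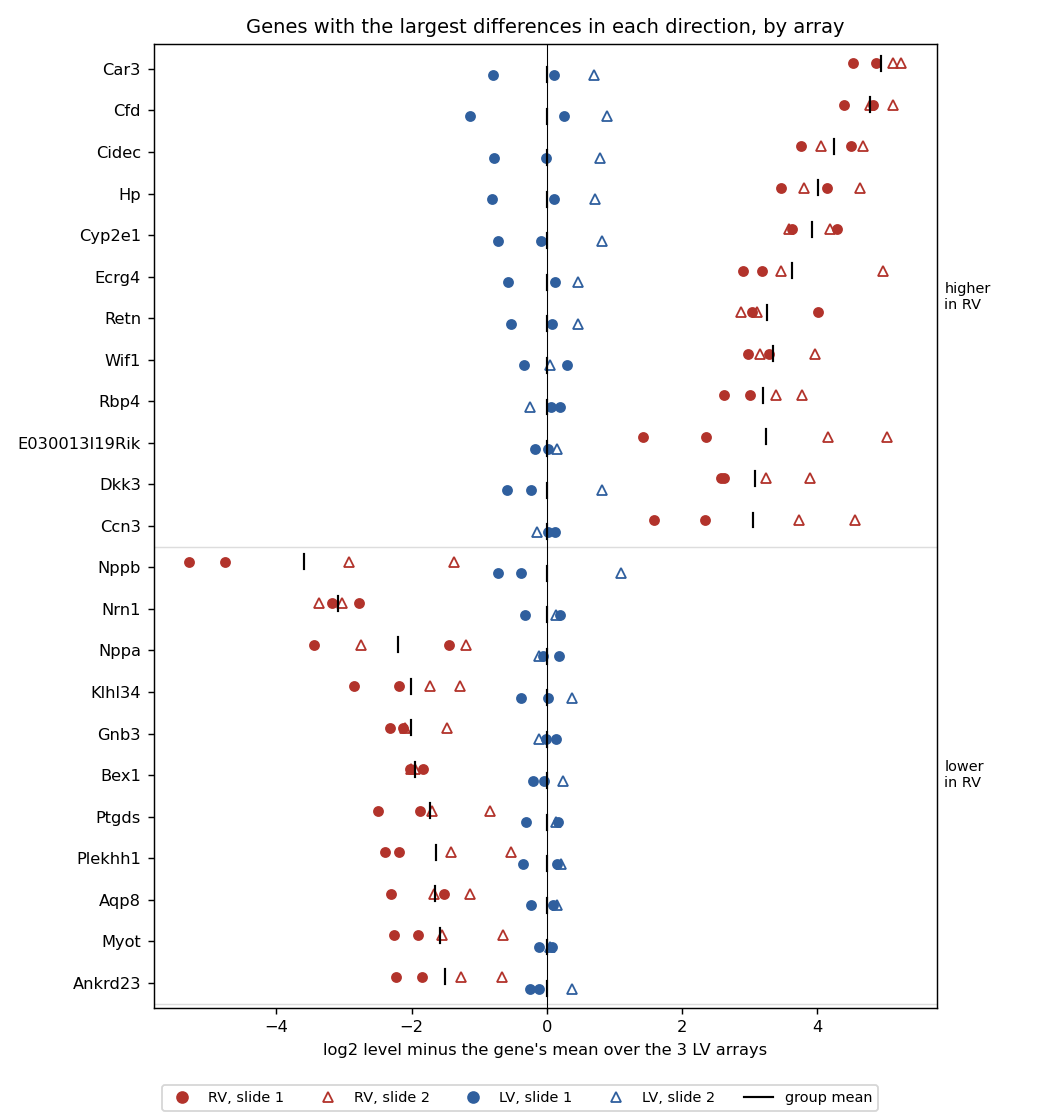
Levels of genes with the largest differences in each direction on each array, as log2 minus the gene's LV mean (horizontal axis), with RV in red, LV in blue, circles for slide 1, triangles for slide 2 and black bars for group means. No gene overlaps between the ventricles, the Car3 groups lie farthest apart, and for Ccn3, E030013I19Rik and Nppb the 2 slides lie far from each other within the RV.

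Cell marker lists moved with these classes. Adipocyte markers were 9 higher and 2 lower of 18, although their summed level, set by the brightest probes, was 256 to 288 in the RV and 288 to 322 in the LV. Adipoq, which encodes adiponectin, and Plin1, a lipid droplet coat protein, were above background on every RV array and no LV array, at least 14.5-fold and at least 4.33-fold higher. The adjusted p was 0.0026 for Adipoq, while Plin1 entered the test through the RV arrays alone and has none here. Nnat, also counted among the higher adipocyte markers, entered the test through the RV arrays alone too. Brown adipocyte markers were 1 lower of 11. Mesothelium markers were 18 higher and 1 lower of 23, with a median of 1.74 and a summed level of 26.2 to 54.9 in the RV and 17.0 to 23.3 in the LV, and 3 were called higher without the slide term. Epithelial junction genes, which overlap with mesothelium markers in kind, were 9 higher and 1 lower of 22, or 6 higher without LV array 3 and 2 without the slide term. The counts include Cldn3, Cdh3 and Cldn10, which entered the test through the RV arrays alone, and Ocln, which entered through the LV arrays alone. The tight junction gene Cldn3 was detected in the RV only, at least 2.36-fold higher. It entered the test through the RV arrays alone, so no p is given.

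Valve and cartilage-like markers were 10 higher and none lower of 16, with a median of 0.90, and 5 were called higher without LV array 1 and 6 without RV array 1 or LV array 3. Ucma, a cartilage matrix protein, was above background on all RV arrays and no LV array, at least 6.53-fold higher (adjusted p = 0.000669), and the secreted protein gene Cytl1 had levels of 3.87, 3.94, 3.88 and 3.52 in the RV and 2.32, 2.04 and 1.32 in the LV (1.96 ± 0.26, adjusted p = 0.0029). Lymphatic markers were 5 higher of 10 and Schwann cell and neuron markers 6 higher and 1 lower of 23, with 2 of each called higher without LV array 3, and 3 of the latter without LV array 2. The myelin gene Mbp had levels of -0.07, -0.11, -0.67 and -0.27 in the RV and -1.57, -1.36 and -1.79 in the LV (1.36 ± 0.12, adjusted p = 0.000799).

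Endothelial markers differed in both directions, with 8 higher and 6 lower of 27 and a summed level of 544 to 576 in the RV and 557 to 596 in the LV. The counts were 3 and 1 without LV array 3. The higher count was 4 without RV array 1 or 2 or LV array 1 or 2 and 5 without septum array 3, the lower count was 2 or 3 without RV array 1, 2 or 4 or LV array 2, and over the scalings they ran from 5 to 9 and from 1 to 8. Vwf, the clotting factor of larger vessels and endocardium, had levels of 5.57, 5.84, 5.43 and 5.33 in the RV and 4.08, 4.18 and 3.42 in the LV (1.72 ± 0.10, 3.30-fold, adjusted p = 0.000461). Plvap, a component of endothelial diaphragms, had 2.14, 2.26, 1.68 and 1.83 in the RV and 0.78, 0.95 and 0.40 in the LV (1.34 ± 0.07, adjusted p = 0.000255). Smooth muscle and pericyte markers were 5 higher and 5 lower of 24, with none higher without LV array 3. The contractile gene Myh11 differed by 1.23 ± 0.26 (adjusted p = 0.0162) and the integrin gene Itga8 by 2.31 ± 0.46 (adjusted p = 0.0133). Both calls were lost without LV array 3, where the values were 0.86 and 1.76, and without the slide term, with adjusted p of 0.0991 and 0.0625.

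Ventricular muscle markers were 11 lower and none higher of 27, with a median of -0.21, and their summed level was 7040 to 7536 in the RV and 7646 to 8537 in the LV. Of these 27, 4 were called without LV array 3, 6 without LV array 1 or 2 and 1 without the slide term. Atrial markers were 4 lower and 1 higher of 17 (1 lower without LV array 2 or 3 or RV array 4), with a summed level of 215 to 299 in the RV and 364 to 391 in the LV, to which Nppa belongs. Blood markers were 1 lower of 8. How much of the differences in muscle, matrix and signalling classes moved with these marker levels was not tested.

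Detection itself was uneven: 38 genes were above background throughout the RV and nowhere in the LV, and the converse held for 1 gene. Besides those given above, the largest bounds on the RV side were Prdm6, a chromatin regulator of smooth muscle, at least 4.51-fold higher, and Pck1, at least 3.36-fold higher. Both entered the test through the RV arrays alone, so no p is given. The gene detected in the LV only was the tight junction gene Ocln, with a mean at least 2.82-fold higher there, and it entered the test through the LV arrays alone. Its levels on LV arrays 1 to 3 were uneven, at -4.07, -3.14 and -1.11, against -5.21 to -4.56 in the RV. The difference was -1.02 on slide 1 and -3.78 on slide 2. The share of spots above background was lowest on LV arrays 2 and 3, and the part of that share in these counts was not tested.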

How the data were processed

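The sample titles gave each array's region and number. The deposited intensity values came from Agilent Feature Extraction (version 11.5.1.1), by which the authors subtracted background, with no scaling between arrays. The authors also deposited log2 values per probe from GeneSpring, which lay within 0.05 of the values here for 100% of probes and served as an alternative.

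Control spots and outlier spots, of which an array had 56 to 128, were removed, and spots of a probe averaged as log2 values, each array being set to its 75th percentile. A probe was tested where all arrays of any 1 region had it well above background (30234 of 56605, 53.4%), with limma 3.58.1 in R 4.3.3 (lmFit and eBayes, two-sided, 2.42 prior and 6 residual degrees of freedom), with a mean per region and a slide term. Through RefSeq accessions (GRCm38.p6) 32994 probes (58.3%) were named, for 22911 genes. Where a gene's probe was below background on all arrays of 1 ventricle, a fold is a lower bound, from the mean of the bright ventricle and, per array of the other, the higher of the probe's own signal and the lowest signal well above background.

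The 60 lists hold 2699 entries (2536 symbols, 2491 on the arrays), and lists share genes. The comparison, the lists and the genes were chosen with earlier results of these data known. Genes named are the 12 largest calls in each direction, up to 4 calls per list, the 6 largest bounds in each direction and a fixed set; not all are printed, and some results are not reported here. A list's counts and median were set beside those of all named genes, with no test, and include genes that entered the test through a single region. On simulated data the fit recovered 46.5%, 91.5% and 96.5% of 200 probes shifted by 0.5, 1 and 2 among 30175. Alternatives were other scalings (normexp, with offset 50, on median signals), filters, blocks, tests, probe choices and array sets. Replicate numbers coincide with slides; the number of arrays limits the precision.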

Additional observations from a re-analysis of the deposited data

Results flagged for a closer look

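Among the 4 RV arrays, 1 array lay far from the other 3 for 4 of the 130 genes examined, which are those named here. For these 4 the gap to the nearest array divided by the whole range (Dixon's ratio) was above its 95% critical value for 4 samples. Chance gives this for about 1 gene in 20, and over all named genes tested it was found for 3.19%. The ratio was 0.866 for Tbx5, where RV array 4 stood at 2.26 and the others between 1.80 and 1.87. It was 0.897 for Phgdh, where RV array 2 stood at -0.33 and the others between -0.03 and 0.01. It was 0.874 for Chrdl1, where RV array 1 stood at -0.80 and the others between -1.01 and -0.98. It was 0.888 for Ocln, where RV array 3 stood at -5.21 and the others between -4.63 and -4.56, all below background.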

How the results depend on the processing

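Against 5331 probes and 3121 genes called, the fit without the slide term called 1167 probes and 729 genes, slide 1 alone 821 and 493, slide 2 alone 331 and 203, no filter on dim probes 1233 and 772, and the methods' analysis of variance with Tukey's correction 784 and 488 after adjustment over probes. Leaving out 1 array gave from 1804 (without LV array 3) to 4945 probes (without RV array 3) and from 1079 to 2906 genes (the same arrays). The cause was not tested, beyond the fewer arrays or the larger number of probes that some of these fits hold. With the replicate number as a block (a replicate block in place of the slide) 4512 probes and 2616 genes were called, 1062 higher and 1554 lower, 2354 of them shared with the calls above. Deviations of RV and LV arrays with the same number correlated at 0.522, 0.36 and 0.426. Those with different numbers on slide 1 correlated at 0.236 (RV array 1, LV array 2) and 0.281 (RV array 2, LV array 1). Once the slide was removed the same-number values were 0.0638, -0.0583 and -0.462, and the different-number values -0.337 and -0.346. Removing the slide by itself lowers correlations within a slide, so these values cannot settle whether the numbers mark pairs. The numbers share a slide and were not taken as pairs. Of the 118 called genes named in the text none changed sign under any alternative that gave them a value. They were called on these same arrays, which favours an unchanged sign, so this is only a description. The filter for detection on every RV and LV array left a value for 101 of them. The call was kept by 113 with the replicate block, 86 without the slide term and 116 after quantile normalization or scaling by the detected probes. It was kept by 118 with scaling by the median, 117 with normexp, 90 with no filter and 64 on slide 1 alone. In the analysis of variance 105 kept it, and 51 with its p adjusted over probes, and from 102 to 117 did without 1 array. Myh6, not called, turned to 0.0041 after quantile normalization and 0.0054 with the detected probes as the scale, and Myl2, not called, to 0.0040 without the slide term and in the analysis of variance, adjusted or not, 0.020 on slide 1 alone, 0.041 after quantile normalization and 0.025 with the detected probes. The median of a list moved by over 1 SD between arrays for 18 of 60 lists on slide 2 alone, 17 with the detected probes as the scale, 10 with the median and 7 after quantile normalization. Probes near background limit the folds of dim genes.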
